A study of Homo sapiens with 2 samples.

Results

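The genes described here are those of the SLC25 family, carrier proteins found mostly in the inner mitochondrial membrane, in Hep3B cells, an established human hepatocellular carcinoma line. They were chosen by symbol: every row with values whose symbol starts with SLC25A, apart from 1 symbol not analysed here and any symbol with a hyphen. This gave 35 genes of the 11511 with values. RNA was sequenced from 1 library of Hep3B cells exposed to 25 µM A4368, a compound known here only by its code, for 24 h and from 1 library of Hep3B cells left untreated, called the control below. Both came from the same line grown in medium with serum, and the vehicle is not given in the sources used here. Neither group was replicated. Values therefore carry no error from repeated cultures, no test could be made, and a difference describes this pair of libraries.

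Carriers of this family share a fold of repeated membrane-spanning helices and exchange solutes between the cytosol and the mitochondrial matrix. Some carry the fuel and product of ATP synthesis, others carry the acids and amino acids of shuttles and of the urea cycle, and others bring in cofactors, nucleotides, iron or glutathione. In liver cells, export of citrate feeds fatty acid and sterol synthesis, and the exchange of ornithine, aspartate and glutamate serves urea synthesis and the transfer of reducing equivalents. All are encoded in the nucleus, and most are inserted into the inner membrane by a dedicated import machinery.

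The deposited values state no unit and were read as FPKM, fragments scaled to transcript length and to the mapped fragments of the library. Read in this way, levels can be compared between genes because they are per length. Ratios are log2 of the A4368 value over the control value after adding 1 FPKM to each, which makes the ratio of a gene at a low level smaller. All 35 carriers reached a mean of 1 FPKM, the minimum set for counting, and so did 11238 genes in all. The read depth is unknown, so no counting error can be given. The cell type markers matched the label: all 10 hepatocyte and hepatoma markers had values, with ALB at 8930 FPKM with A4368 and 9183 FPKM in the control. Of 10 markers of endothelial, stromal and blood cells CD68 alone had values, at 27.9 FPKM with A4368 and 29.98 FPKM in the control.

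Most carriers differed little between the libraries, and the larger differences lay on the higher side. With A4368, 24 carriers had higher and 11 had lower values. SLC25A36, SLC25A4, SLC25A27, SLC25A29, SLC25A1, SLC25A46 and SLC25A51 were higher by at least 1.2-fold on the ratio scale, and SLC25A45 was lower by at least 1.2-fold. These 7 and 1 of 35 stand beside 11.2% of all kept genes that were higher by that limit and 11.1% that were lower. At a 1.5-fold limit SLC25A36 alone was higher and no carrier was lower, beside 1.08% of kept genes higher and 2.12% lower. The median ratio of the carriers was 0.06, against 0.01 over all kept genes, 51.99% of which had higher values. In an alternative scaling, which gives the libraries equal totals over all but the 50 most abundant genes, 28 carriers had higher values, beside 60.9% of all kept genes, and the median was 0.11 for the carriers and 0.06 over all kept genes.

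**Figure D1:**
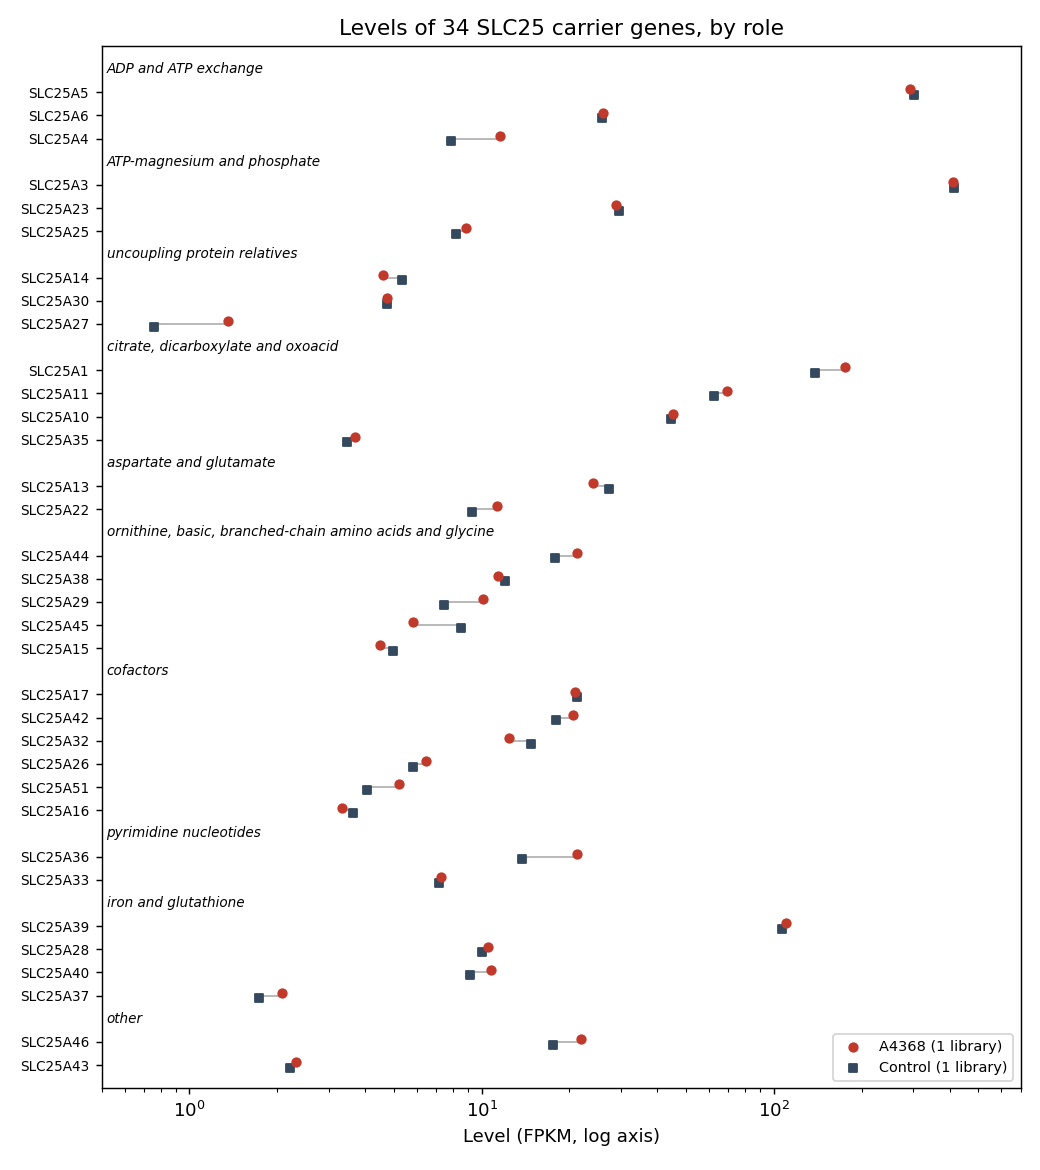
Levels of 34 of the 35 SLC25 carrier genes in FPKM on a log axis, grouped by role, with the A4368 library as red circles and the control library as dark squares, 1 library each. The levels span from about 1 FPKM for SLC25A27 to over 400 FPKM for SLC25A3, and the widest gaps between the symbols are those of SLC25A27, SLC25A36, SLC25A4 and SLC25A45.

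The carriers of ATP synthesis dominated the family. SLC25A3, which brings phosphate into the matrix for ATP synthesis, was at 411 FPKM with A4368 and 416 FPKM in the control, the highest level of the 35. SLC25A5, the ADP/ATP exchanger typical of proliferating cells, was at 294 FPKM with A4368 and 302 FPKM in the control. Together these carriers made up 48.9% of the summed carrier level with A4368 and 51.8% in the control. Their ratios were -0.02 and -0.04, and both turned to 0.03 and 0.01 after the rescaling, so no direction is given for them. Of the distinct 31-base words of SLC25A5 transcripts, 31.8% also occur in transcripts of other genes, among them SLC25A5-AS1, so reads of SLC25A5 could be divided between genes.

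The ratios of the ADP/ATP exchangers were unlike. SLC25A4, the form best known from heart and skeletal muscle, was at 11.5 FPKM with A4368 and 7.87 FPKM in the control. That is 1.47-fold higher with A4368, a log2 ratio of 0.50, and 2.002% of all kept genes had a higher ratio. SLC25A6, a widely expressed form, was at 26.1 FPKM with A4368 and 25.9 FPKM in the control. SLC25A5 stood 25.5-fold above SLC25A4 with A4368 and 38.4-fold above it in the control, so SLC25A4 remained the least abundant of the exchangers with values in both libraries.

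Carriers that exchange ATP-magnesium for phosphate under the control of calcium were close to even. SLC25A23 was at 28.8 FPKM with A4368 and 29.6 FPKM in the control. SLC25A25 was at 8.85 FPKM with A4368 and 8.15 FPKM in the control. Of the relatives of the uncoupling proteins, SLC25A27 was the carrier with the lowest level, at 1.36 FPKM with A4368 and 0.755 FPKM in the control. Its log2 ratio of 0.43 rests on values near the minimum, where ratios scattered most: over genes between 1 and 5 FPKM the SD of the ratio was 0.34, against 0.16 over those at 100 FPKM or more. With a pseudocount of 5 in place of 1, the ratio of SLC25A27 was 0.14. SLC25A14 was at 4.58 FPKM with A4368 and 5.32 FPKM in the control, and SLC25A30 was at 4.74 FPKM with A4368 and 4.73 FPKM in the control.

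**Figure D2:**
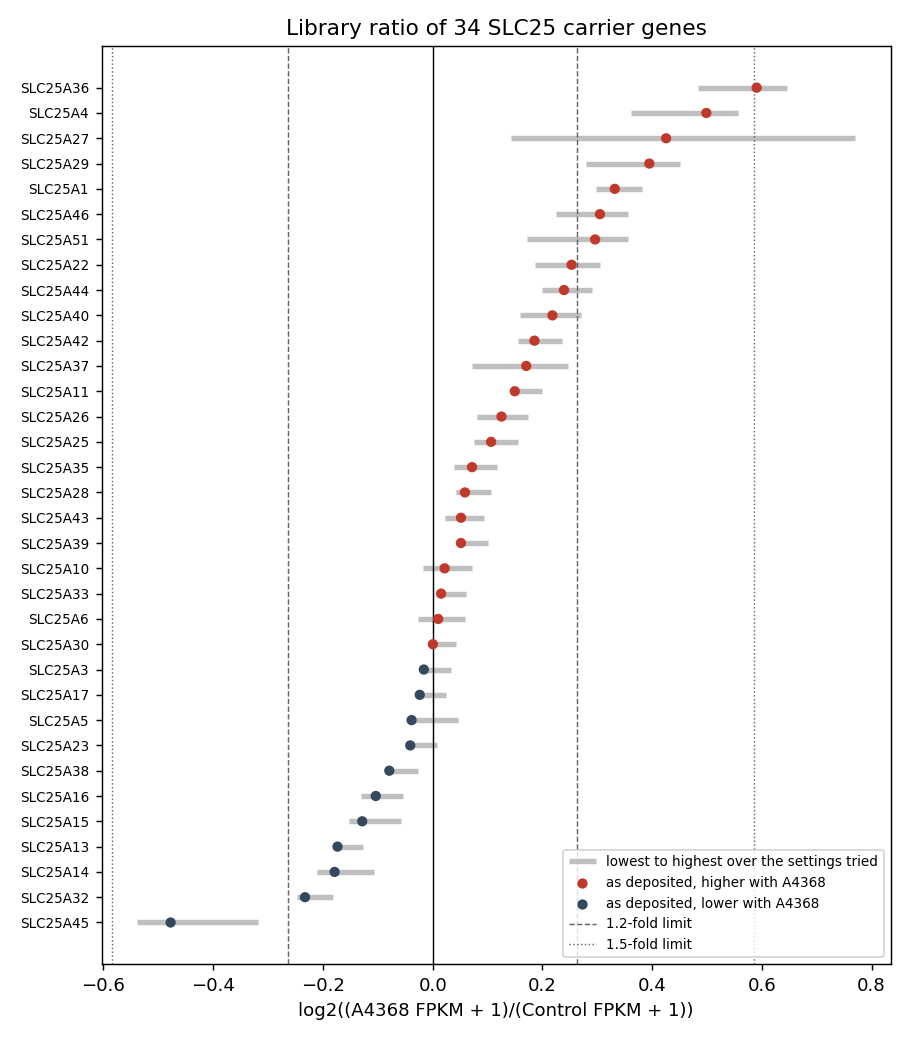
Log2 ratio of A4368 over control, after adding 1 FPKM, for 34 of the 35 carriers, with points for the values as deposited and grey bars from the lowest to the highest value over the processing settings tried. SLC25A36 at 0.59 and SLC25A4 at 0.50 lie at the top and SLC25A45 at -0.48 at the bottom, and the bar of SLC25A27 is the widest.

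The 4 carriers of citrate and other acids had higher values with A4368, beside 51.99% of all kept genes. The log2 ratios of SLC25A10 at 0.02 and SLC25A35 at 0.07 were close to 0. SLC25A1, which exports citrate from the matrix for cytosolic acetyl-CoA, was at 175 FPKM with A4368 and 139 FPKM in the control, 1.26-fold higher. Its log2 ratio of 0.33 lay among genes of high level that were mostly lower: 2.39% of the 921 genes at 100 FPKM or more were higher by 1.2-fold, and 27.0% of them were higher at all. SLC25A11, the oxoglutarate-malate exchanger of the malate-aspartate shuttle, was at 69.3 FPKM with A4368 and 62.3 FPKM in the control. SLC25A10, the dicarboxylate carrier, was at 45.3 FPKM with A4368 and 44.7 FPKM in the control, and SLC25A35 was at 3.68 FPKM with A4368 and 3.45 FPKM in the control. SLC25A10 shares 43.3% of its words with the annotated gene AC139530.2 and SLC25A35 shares 29.2% with RANGRF, so their values may include reads of these neighbours. In a fit that takes out trends with GC content and transcript length, the ratio of SLC25A10 was -0.02. The median ratio of the group was 0.11.

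**Figure D3:**
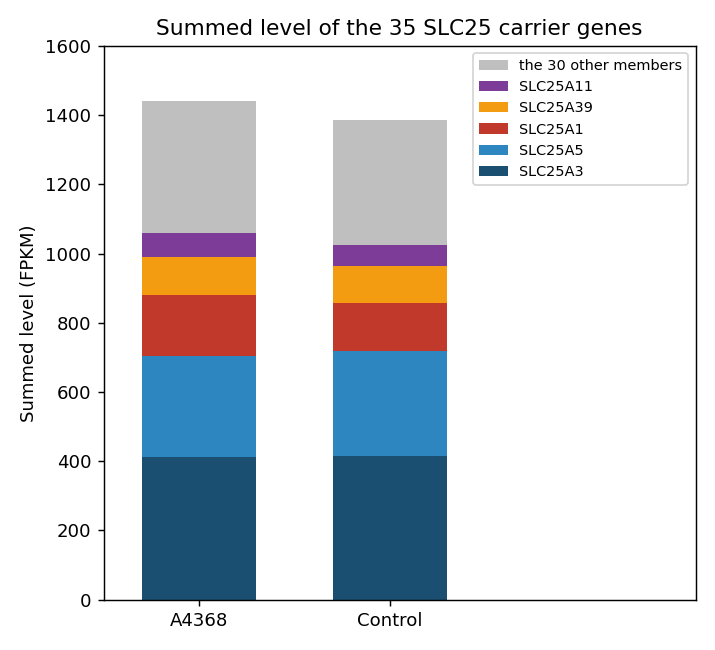
Summed level in FPKM of the 35 carriers in each library, with A4368 left and control right, stacked by the 5 highest carriers and the 30 others. The sums are 1441 FPKM with A4368 and 1385 FPKM in the control, and the segment of SLC25A1 differs most.

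SLC25A1 had the largest single difference in FPKM of the family. The 35 carriers summed to 1441 FPKM with A4368 and to 1385 FPKM in the control, a difference of 56.4 FPKM, and the difference of SLC25A1 alone was 36.2 FPKM. For FPKM differences the control was kept as deposited, and A4368 was multiplied by 1.035 to match its total over all but the 50 most abundant genes. The difference was then 107 FPKM for the family and 42.3 FPKM for SLC25A1. The part of SLC25A1 was 64.1% of the net difference as deposited and 39.5% after this step. The sum over all genes went the other way, at 535798 FPKM with A4368 and 554205 FPKM in the control. The ratio of the carrier sums was 1.04 as deposited and 1.08 after the rescaling. The carriers made up 0.269% of the summed FPKM of all genes with A4368 and 0.250% in the control.

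Carriers of aspartate and glutamate differed from each other. SLC25A13, called citrin, the aspartate-glutamate exchanger of liver, was at 24.2 FPKM with A4368 and 27.4 FPKM in the control, a log2 ratio of -0.17. SLC25A22, a glutamate carrier, was at 11.3 FPKM with A4368 and 9.31 FPKM in the control, a log2 ratio of 0.25, just inside the 1.2-fold limit of 0.263. SLC25A46 and SLC25A51, at 0.30 each, lay just outside it. With a pseudocount of 5 both were inside it, at 0.255 for SLC25A46 and 0.17 for SLC25A51, and the GC and length correction put SLC25A46 at 0.22. On the lower side SLC25A32 at -0.23 lay nearest inside.

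Other amino acid carriers included the lowest ratio of the family. SLC25A45, grouped here by its relatives since its substrate is less settled, was at 5.82 FPKM with A4368 and 8.49 FPKM in the control. The control value was 1.46-fold that of A4368, the log2 ratio was -0.48, and 3.49% of kept genes had a lower ratio. SLC25A29, a carrier of basic amino acids, went the other way, at 10.1 FPKM with A4368 and 7.47 FPKM in the control, 1.36-fold higher with a log2 ratio of 0.39. SLC25A44, which carries branched-chain amino acids, was at 21.2 FPKM with A4368 and 17.8 FPKM in the control. SLC25A15, the ornithine-citrulline exchanger of the urea cycle, was at 4.48 FPKM with A4368 and 4.99 FPKM in the control. SLC25A38, which brings glycine in for heme synthesis, was at 11.4 FPKM with A4368 and 12.1 FPKM in the control. In this group 2 of 5 carriers were higher, beside 51.99% of all kept genes, and the median was -0.08.

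Carriers of cofactors spread to both sides. SLC25A51, which imports NAD, was at 5.20 FPKM with A4368 and 4.05 FPKM in the control, 1.28-fold higher. Of its words 32.2% also occur in other genes, 15.4% in SLC25A52, a near copy for which no value was analysed here. SLC25A42, a carrier of coenzyme A, was at 20.6 FPKM with A4368 and 18.0 FPKM in the control, whereas SLC25A16, which has also been linked to coenzyme A, was at 3.32 FPKM with A4368 and 3.64 FPKM in the control. SLC25A26, the carrier of S-adenosylmethionine, was at 6.43 FPKM with A4368 and 5.82 FPKM in the control. It was higher by less than 1.2-fold. SLC25A32, a folate and flavin carrier, was at 12.4 FPKM with A4368 and 14.7 FPKM in the control. Of its words 78.0% also occur in other genes, 67.9% in the annotated gene AC012213.5. SLC25A17, a carrier of the peroxisome and not of the mitochondrion, was at 20.9 FPKM with A4368 and 21.3 FPKM in the control. In this group 4 of 7 carriers were higher, beside 51.99% of all kept genes, and 5 of 7 after the rescaling, beside 60.9%.

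The carriers of pyrimidine nucleotides gave the highest ratio of the family and one close to 0. SLC25A36 was at 21.1 FPKM with A4368 and 13.7 FPKM in the control, 1.54-fold higher. Its log2 ratio of 0.59 lay just past the 1.5-fold limit, and 1.06% of kept genes had a higher ratio. It fell short of that limit with a pseudocount of 5, at 0.48, and after the GC and length correction, at 0.56. SLC25A33, its relative with the same kind of substrate, was at 7.24 FPKM with A4368 and 7.15 FPKM in the control. SLC25A36 stood 2.92-fold above SLC25A33 with A4368 and 1.92-fold above it in the control. Words found in other genes made up 0.22% of SLC25A36 and 31.8% of SLC25A33.

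Carriers of iron and glutathione were all higher as deposited, by less than 1.2-fold, beside 51.99% of all kept genes that had higher values. SLC25A39, which imports glutathione, was at 110 FPKM with A4368 and 107 FPKM in the control. Its relative SLC25A40 was at 10.8 FPKM with A4368 and 9.14 FPKM in the control. After the rescaling the log2 ratio of SLC25A40 was 0.27, past the 1.2-fold limit, beside 16.1% of all kept genes higher by that limit. SLC25A28, or mitoferrin 2, was at 10.5 FPKM with A4368 and 10.0 FPKM in the control. SLC25A37, or mitoferrin 1, the form known for iron import in red cell precursors, was at 2.08 FPKM with A4368 and 1.73 FPKM in the control. Each stayed above 0 under the settings that gave it a value, which for SLC25A37 leaves out a minimum of 5 FPKM, and the median ratio was 0.11. Of the remaining carriers, SLC25A46, which sits in the outer membrane and acts on mitochondrial shape, was at 21.95 FPKM with A4368 and 17.6 FPKM in the control, 1.25-fold higher. SLC25A43, whose substrate is not settled, was at 2.32 FPKM with A4368 and 2.202 FPKM in the control.

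**Figure D4:**
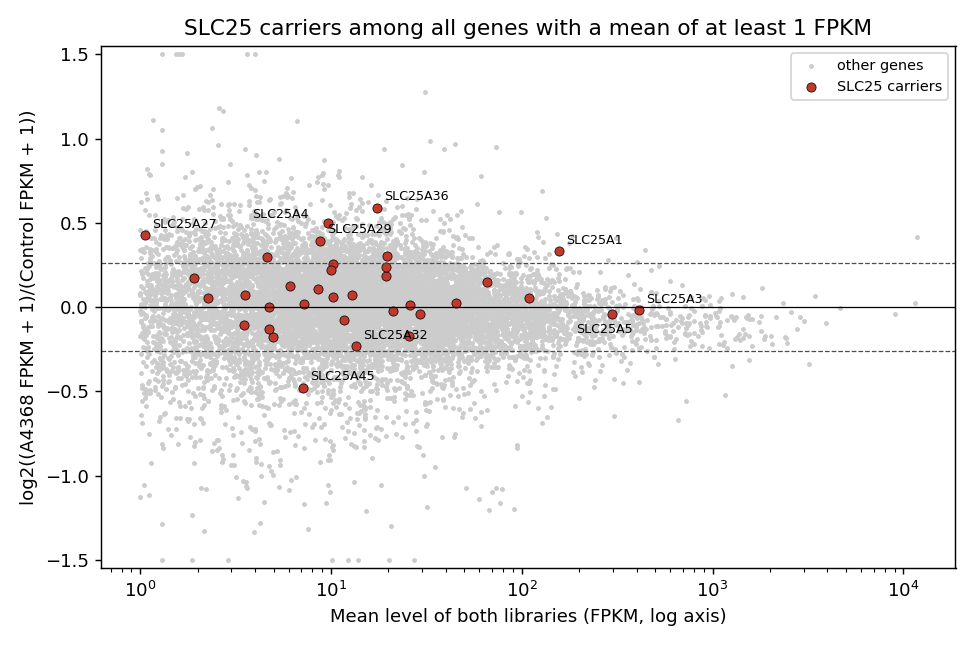
Log2 ratio of A4368 over control against the mean level in FPKM on a log axis, for every gene that averaged 1 FPKM or more in grey and the 35 carriers in red. Dashed lines mark the 1.2-fold limit, 14 grey genes past 1.5 log2 units are drawn at the edge, and the carriers lie within the cloud of genes of like level, with 7 above the upper line and 1 below the lower.

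Because ratios varied with level, carriers were also set beside genes of like level. Between 5 and 20 FPKM, 13 of 16 carriers and 58.4% of 4394 genes were higher, and the median ratio was 0.16 for the carriers and 0.04 for the genes. From 1 to 5 FPKM, 6 of 9 carriers were higher, beside 54.6% of genes. From 20 to 100 FPKM, 3 of 6 carriers were higher, beside 48.6% of genes. At 100 FPKM or more, 2 of 4 carriers were higher, with a median of 0.02 against -0.07 for the genes. The small numbers in each range allow no more than this description.

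Promoter sequences were compared as a feature that had no part in choosing the genes. RefSeq windows on GRCh38.p14, from 250 bases before to 50 bases after a start site, were found for 29 of the 35 carriers. Their median GC content was 68.7%, against 65.3% for the kept genes with a window. The palindrome TGACGTCA, known as the cyclic AMP response element, was in the windows of SLC25A36, SLC25A33 and SLC25A25, that is 10.3% of the carriers with a window, 3.96% of the kept genes and 2.25% of all 27305 genes with a window. These windows are shown, 40 bases each on the plus strand with the palindrome in capitals, because the same letters stand before carriers with unlike ratios.
SLC25A36, chr3:140941703-140941742: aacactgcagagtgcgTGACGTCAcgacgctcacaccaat
SLC25A33, chr1:9539400-9539439: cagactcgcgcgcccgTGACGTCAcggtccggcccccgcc
SLC25A25, chr9:128098291-128098330: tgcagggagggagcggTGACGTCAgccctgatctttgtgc

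The log2 ratios of these genes were 0.59 for SLC25A36, 0.02 for SLC25A33 and 0.11 for SLC25A25. The palindrome starts 117 bases before the start site in SLC25A36, 49 bases before it in SLC25A33 and 200 bases before it in SLC25A25. SLC25A25 has 3 windows, and the start site meant is that of the window with the palindrome. The ratio is that of the whole gene and not of this start site. A match is a run of letters and was not tested as a site. The palindrome was added to the search after a first look at the windows, so its share is no independent comparison.

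Letters of nuclear respiratory factor 1, a regulator of many mitochondrial genes, were searched as GCGCANGCG on both strands. SLC25A11, SLC25A3 and SLC25A51 held them, 10.3% of the carriers with a window against 18.1% of the kept genes. The match of SLC25A51 lies after the start site and is not shown. The others are given 5′ to 3′ on the strand of the gene, where the capitals mark the match, read here as its reverse complement.
SLC25A11, chr17:4940047-4940086, minus strand: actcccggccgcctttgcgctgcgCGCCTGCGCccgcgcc
SLC25A3, chr12:98593457-98593496, plus strand: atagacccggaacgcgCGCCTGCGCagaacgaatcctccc

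The log2 ratios of SLC25A11, SLC25A3 and SLC25A51 were 0.15, -0.02 and 0.30. The ATF4 letters TGATGNAA were in the window of SLC25A11 alone, 3.45% of the carriers against 2.62% of the kept genes. TATAAA was in the windows of SLC25A26 and SLC25A5, 6.90% of the carriers against 7.78% of the kept genes. The CCAAT box was in 18 of the 29, 62.1% of the carriers against 43.9% of the kept genes and 39.7% of all genes, the GC box GGGCGG in 24, 82.8% against 78.1% of the kept genes, and the ETS letters CGGAAG in 12, 41.4% against 40.4%. Of the carriers higher by 1.2-fold, the CCAAT box was in the windows of SLC25A36, SLC25A4, SLC25A27, SLC25A29 and SLC25A1 and not in those of SLC25A46 and SLC25A51. It was also in the window of SLC25A45, the carrier with the lowest ratio. The CCAAT, GC and ETS letters, like the palindrome, were added after the first look at the windows, so their shares describe these windows only. The whole stretch before the start sites of SLC25A36 and SLC25A45 is shown because these carriers had the highest and the lowest ratio. It is given 5′ to 3′ on the strand of the gene, and capitals mark the CCAAT box and, in SLC25A36, also the palindrome. For SLC25A45 the start site with the box is the one printed.
SLC25A36, chr3:140941586-140941835, plus strand: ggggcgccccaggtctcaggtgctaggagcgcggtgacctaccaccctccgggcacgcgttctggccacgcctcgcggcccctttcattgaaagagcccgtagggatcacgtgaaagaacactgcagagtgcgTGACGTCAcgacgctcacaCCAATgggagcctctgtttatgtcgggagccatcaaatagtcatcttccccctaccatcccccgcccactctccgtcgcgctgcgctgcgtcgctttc
SLC25A45, chr11:65381972-65382221, minus strand: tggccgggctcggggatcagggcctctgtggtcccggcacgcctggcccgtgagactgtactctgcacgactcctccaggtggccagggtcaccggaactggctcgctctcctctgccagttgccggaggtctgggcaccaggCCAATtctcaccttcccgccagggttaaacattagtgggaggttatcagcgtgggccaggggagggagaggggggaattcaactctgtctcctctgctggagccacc

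The box starts 98 bases before the start site in SLC25A36 and 107 bases before it in SLC25A45.

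**Figure D5:**
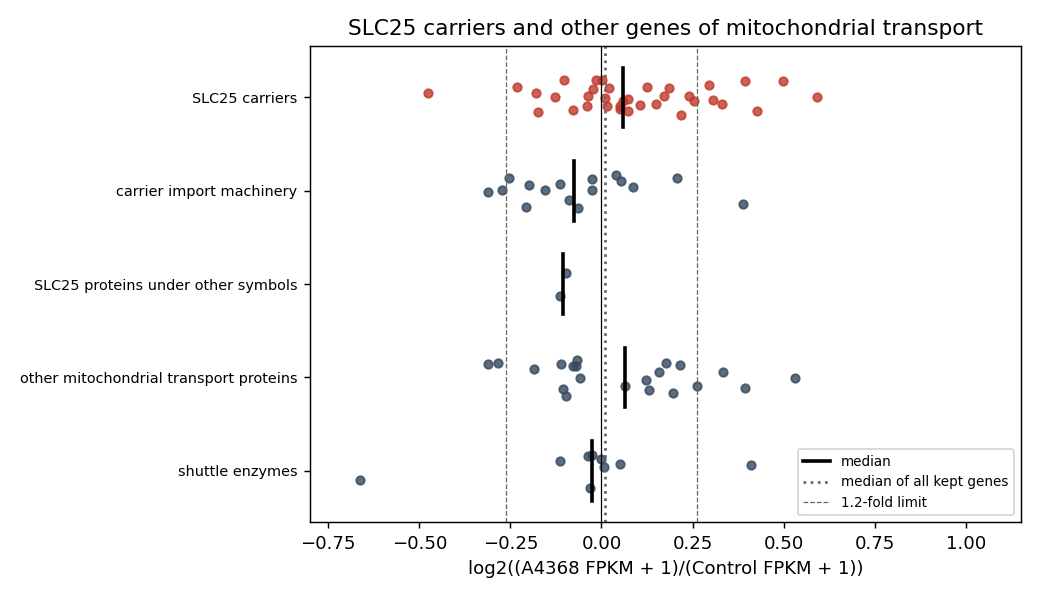
Log2 ratio of A4368 over control for the 35 carriers in red and for 4 other lists of mitochondrial transport genes in dark blue, with a black bar at each median and dashed lines at the 1.2-fold limit. The median of the carriers is 0.06 and that of the import machinery -0.08. The lists differ in level, with control medians of 10.0 FPKM for the carriers and 81.9 FPKM for the import machinery.

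Other genes of mitochondrial transport did not follow one direction. A list of 16 genes covers the machinery that receives carriers at the outer membrane and inserts them into the inner membrane. Of these, 5 were higher, beside 51.99% of all kept genes, and 11 lower, with a median of -0.08. Their control median was 81.9 FPKM, against 10.0 FPKM for the carriers. Genes at such levels were less often higher, 48.6% from 20 to 100 FPKM and 27.0% at 100 FPKM or more. After the rescaling 7 of the 16 were higher, beside 60.9% of all kept genes, and the median was -0.03. TOMM40, the channel of the outer membrane, was at 82.3 FPKM with A4368 and 102 FPKM in the control. The chaperone gene TIMM9 was at 27.8 FPKM with A4368 and 33.8 FPKM in the control. These 2 of the 16 were lower by at least 1.2-fold as deposited, beside 11.1% of all kept genes. After the rescaling 1 of the 16 was lower by that limit, beside 8.81% of all kept genes. TIMM8A, another small chaperone, was at 10.4 FPKM with A4368 and 7.70 FPKM in the control. Its log2 ratio of 0.39 was the largest of the list in either direction. It alone of the 16 was higher by at least 1.2-fold as deposited, beside 11.2% of all kept genes. TIMM22, the inserting channel itself, was at 15.0 FPKM with A4368 and 14.1 FPKM in the control. MTCH1 and MTCH2, SLC25 relatives in the outer membrane with other symbols, were at 140 and 91.0 FPKM with A4368 and at 150 and 98.6 FPKM in the control.

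Among 21 further transport genes, 11 were higher, beside 51.99% of all kept genes, and 10 lower, with a median of 0.06. By at least 1.2-fold 4 of the 21 were higher (ABCB6, MICU2, SFXN5 and SFXN3), beside 11.2% of all kept genes. By the same limit 2 were lower (MPC1 and SFXN1), beside 11.1%. After the rescaling 5 were higher and 0 lower by that limit, beside 16.1% and 8.81% of all kept genes. ABCB6, a porphyrin transporter gene, had the largest ratio, 0.53, at 30.4 FPKM with A4368 and 20.7 FPKM in the control. MICU2, a regulator of the calcium uniporter, was at 24.0 FPKM with A4368 and 18.0 FPKM in the control. MPC1, a subunit of the pyruvate carrier, was at 66.7 FPKM with A4368 and 82.9 FPKM in the control. Of 9 enzymes that work beside the carriers in shuttles, 3 were higher as deposited, beside 51.99% of all kept genes, and 7 after the rescaling, beside 60.9%. ME1, the cytosolic malic enzyme, was at 33.1 FPKM with A4368 and 24.7 FPKM in the control. GPD1, of the glycerol phosphate shuttle, was at 1.13 FPKM with A4368 and 2.38 FPKM in the control. The mean of GPD1, 1.75 FPKM, lay near the minimum, where ratios scattered most, and a minimum of 5 FPKM leaves this gene out. ACLY, the enzyme that cleaves the citrate exported by SLC25A1, was at 65.1 FPKM with A4368 and 66.8 FPKM in the control. The malate-aspartate enzyme genes GOT1, GOT2, MDH1 and MDH2 had log2 ratios from -0.03 to 0.05.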

How the data were processed

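The table the authors deposited gives a symbol and, per library, 1 value without a stated unit. Cufflinks, Bowtie2 2.2.3, TopHat2 2.0.12 and hg19 are named in the submitters' processing notes, and the deposited values were therefore read as FPKM. Of 24302 lines, 11511 held values, and the lowest mean was 0.496 FPKM. Depth, annotation and strandedness were not given in the sources used here.

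Ratios were log2 after adding a pseudocount of 1 FPKM, for genes that averaged 1 FPKM or more. With 1 library per group no p-value was computed, and limits of 1.2-fold and 1.5-fold describe size. The carriers, role lists and limits were chosen with earlier results of these data known. Given in full were the 5 highest and 5 lowest ratios among carriers averaging 5 FPKM or more, the 5 highest means and pairs of relatives, and the other carriers have both values too, except 1 that is not reported here by itself. The carrier role lists held 47 symbols, of which 12 had no value analysed here. Shared sequence was counted in words of 31 bases on either strand, in GENCODE release 29 transcripts. Of the promoter motifs, those of NRF1, ATF4 and TATA were listed first and the other 4 were added after a first look at the windows. Protein sequences were not used here. The ratio step was run on simulated data with noise below the spread of ratios seen here and shifts far past the 1.2-fold limit. That run checks the arithmetic and cannot show how reliable a call is. Python 3.11.15, numpy 2.4.6, pandas 2.3.3 and matplotlib 3.10.9 were used.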

Additional observations from a re-analysis of the deposited data

How the results depend on the processing

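No paired analysis was possible because each group has 1 library. The alternatives changed the pseudocount to 0.1 or 5, dropped the minimum or raised it to 5 FPKM, centred ratios on genes averaging 10 FPKM or more, or rescaled the libraries without the 50 highest genes. The rescaling raised the values of both libraries, so the pseudocount of 1 weighed less in its ratios. A correction for GC content and length and a run without the 11 carriers that share at least 10% of their words were chosen after seeing the data. Carriers higher by 1.2-fold numbered 4 with a pseudocount of 5 and 5 to 10 under the others, against 7. The share of all genes higher by that limit moved too, at 4.65% with a pseudocount of 5, 9.04% with the minimum at 5 FPKM and 16.1% after the rescaling, against 11.2%. The 1.2-fold call of SLC25A45 held under all 8 alternatives, and those of SLC25A36, SLC25A4, SLC25A29 and SLC25A1 did too. Carriers higher by 1.5-fold numbered 2 with a pseudocount of 0.1, 0 with a pseudocount of 5 and 0 after the GC and length correction, against 1. Lower carriers numbered 7 after the rescaling and 7 without the sharing carriers, where 24 carriers remain, against 11. The ratio of the carrier sums was 1.08 after the rescaling and 1.07 without the sharing carriers, against 1.04, and within 0.02 of it under the others that give sums. The GC and length correction acts on ratios, so no sum was made from it. The median ratio stayed above 0, from 0.04 to 0.11. After the rescaling, the log2 ratios of SLC25A23, SLC25A3 and SLC25A5 reversed to 0.0076, 0.034 and 0.011, and that of SLC25A5 was 0.046 after the GC and length correction. The cause was not tested. Of the 35 carriers, 28 kept their sign under each setting that gave them a value, all but SLC25A10, SLC25A17, SLC25A23, SLC25A3, SLC25A30, SLC25A5 and SLC25A6. The minimum at 5 FPKM left 26 carriers. With an unknown depth, low carriers such as SLC25A27 are the least certain.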
